A study of Homo sapiens with 4 samples.

Results

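CenU codes 65 to 96 are the 32 position codes that were present in the centromere-forming input DNA of both human artificial chromosomes of the series, HAC 1-20 and HAC 4-65. They were chosen by their number alone, and all 32 had reads in each of the 4 libraries, out of 128 T references (read here as CenU) and 384 L references (of which numbers 1 to 96 are read here as NCU). A position code is a run of 23 bases carried by 1 repeat unit, so that a read of the code names the unit it came from. HT1080, a human fibrosarcoma line, carried HAC 1-20, whose CenU input was codes 65 to 128, or HAC 4-65, whose CenU input was codes 1 to 96. Both chromosomes also received the non-centromere units NCU 1 to 96, and each line is 1 picked clone. From each line, total RNA was taken through the step of reverse transcription (1 µg of RNA, 100 ng of the product in the PCR) with the enzyme (RT plus) or without it (RT minus), and all codes were amplified together with 1 common primer pair. Without reverse transcription the template is the HAC DNA left in the RNA. RT minus reads therefore stand for the DNA level of a code in that line, as far as both common primers can bind its unit. RT plus reads give DNA and cDNA together. There was 1 library per group, so no test between conditions was possible, and the intervals given are 95% counting intervals that do not cover the variation between cultures or PCRs.

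Alphoid DNA is the tandem repeat found at human centromeres. The CENP-B box within it is bound by CENP-B, and this binding favours the deposition of CENP-A, the histone H3 variant that marks a centromere. CenU units carry intact CENP-B boxes and tet operators, whereas NCU units carry altered boxes and lac operators. Alphoid repeats of natural centromeres are transcribed at low levels, and an artificial chromosome brings a drug resistance gene with a promoter of its own close to the repeats. The comparison of RT plus with RT minus asks which units gave RNA, and the presence of the same 32 codes in both lines lets a unit be compared in a pair of arrangements.

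The codes below are those on which the results turn: the codes raised in RT plus in HAC 1-20, those with few reads in 1 or both lines, and a pair raised a little in HAC 4-65. They are written 5′ to 3′, with the bases that tell the codes apart in capitals.
CenU 65: ggggaaaaTAcccAAtttAAggg
CenU 66: ggggaaaaTAcccATtttATggg
CenU 67: ggggaaaaTAcccAGtttAGggg
CenU 68: ggggaaaaTAcccACtttACggg
CenU 79: ggggaaaaTAcccCGtttCGggg
CenU 80: ggggaaaaTAcccCCtttCCggg
CenU 85: ggggaaaaTTcccTAtttTAggg
CenU 88: ggggaaaaTTcccTCtttTCggg
CenU 96: ggggaaaaTTcccCCtttCCggg

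The NCU code of the same number differs from a CenU code at 1 base, which is in capitals in the next example.
NCU 66: gggCaaaatacccattttatggg
Counted from 1 at the 5′ end of the code, the substitution from CenU 66 to NCU 66 is G4C, and the same substitution links 31 of the 32 codes to the NCU code of their number. Each of the 32 codes has 5 such neighbours at a distance of 1 base among all CenU and NCU codes. For CenU 66 they are NCU 66, CenU 2 (T9A), CenU 82 (A10T), CenU 98 (A10G) and CenU 114 (A10C). A single misread base can therefore move a read between codes, and how many mismatches the alignment allowed is not given in the sources used here.

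CenU 72 is the exception, because the list of codes and the primer that built the unit give it different sequences.
CenU 72 in the code list: ggggaaaaAAcccAAtttAAggg
CenU 72 in the unit primer: ggggaaaaTAcccTCtttTCggg
CenU 1 in the code list: ggggaaaaTAcccTCtttTCggg
CenU 1 in the unit primer: ggggaaaaAAcccAAtttAAggg
The names 1 and 72 are exchanged between both sources, and these were the only CenU codes of the 126 compared whose list and primer sequences differed. In the list, the neighbour of CenU 72 by G4C is NCU 1. The count files name the references without their sequence, so which of these sequences the reference T072 holds could not be told, and every value of CenU 72 below is given with that limit.

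The libraries held between 248904 and 749846 reads on codes. The 32 shared codes took 20229 (RT minus) and 68670 (RT plus) reads for HAC 1-20, and 56006 and 57692 for HAC 4-65, or 8.13%, 9.16%, 7.85% and 8.44% of the reads on codes. Their median was 538.5, 1697.5, 1459 and 1466.5 reads. The DNA level is given here as RT minus reads in percent of the median of the 32 codes in the same line, so it ranks codes within a line and is not a copy number.

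DNA levels fell into a low group and a main group in both lines, with a wide gap between them. In HAC 1-20, 3 of the 32 codes (68, 72 and 88) were below 20% of the median, at 3.90% to 6.31% (21 to 34 reads), whereas the other 29 lay between 76.5% and 263%. Among all 64 input codes of that line, 7.81% were as low by the same mark. In HAC 4-65, 7 codes (66, 67, 68, 72, 85, 88 and 96) were below 20%, at 1.85% to 10.5% (27 to 153 reads), and the other 25 lay between 52.2% and 304%. Of all 96 input codes of HAC 4-65, 22.9% were as low, so the share among the shared codes was close to that of the whole input. In each line 1.04% of the NCU codes were under 20% of their own median. The 3 codes that were low in HAC 1-20 were low in HAC 4-65 too, 4 were low in HAC 4-65 only, and 25 were low in neither.

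CenU 68, CenU 72 and CenU 88 had few reads everywhere. With the RT minus library named first for each line, CenU 68 had 22 and 92 reads for HAC 1-20 and 56 and 59 for HAC 4-65. CenU 72 had 21, 79, 77 and 55 reads in that order. CenU 88 had 34, 109, 137 and 157 reads. How such values compare with codes that were not in the input can be seen in HAC 1-20, where CenU 2 to 64 were not part of the input DNA. These 63 codes had 4 to 50 reads in RT minus (median 17), or 0.226% to 2.34% of the reads of the NCU code of the same number (median 0.727%). CenU 68 stood at 1.5% and CenU 72 at 1.13% of their NCU code, inside that range, and 6 and 16 of the 63 absent codes were at or above them. Set against NCU 1, its neighbour in the code list, CenU 72 stood at 0.634% in RT minus and 0.827% in RT plus. CenU 88 stood at 2.49% of NCU 88, just above all 63. In RT plus the absent codes reached 1.92%, and CenU 72 at 1.40% lay below this while CenU 68 at 2.02% and CenU 88 at 2.96% lay above. The presence of CenU 68 and CenU 72 DNA in HAC 1-20 was thus not detectable above the reads of absent codes in RT minus.

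CenU 1 was outside the HAC 1-20 input and yet 700 RT minus reads and 2092 RT plus reads of that line carried it, far from the 50 and 208 reads that the highest of CenU 2 to 64 reached. At 130% of the median of the shared codes in RT minus, it stood where an input code of that line would stand, and where CenU 71 and CenU 73, the neighbours of CenU 72 by number, stood at 90.1% and 115%. The code list gives CenU 1 the sequence that the unit primer gives CenU 72. Whether the reads under the name CenU 1 belong to the unit 72 was not tested. In HAC 4-65, which received both units, CenU 1 had 2714 and 2440 reads.

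CenU 66, CenU 67, CenU 85 and CenU 96 were at or above 93.8% of the median in HAC 1-20 and low in HAC 4-65. CenU 66 had 1371 RT minus reads in HAC 1-20 against 153 in HAC 4-65, so its DNA level was 24.2 times higher in HAC 1-20 (interval 20.5 to 28.6). CenU 67 had 941 and 30 reads, a ratio of levels of 83.6 (58.3 to 120). CenU 85 had 904 and 119 reads, a ratio of 20.5 (16.9 to 24.8). CenU 96 had 505 and 27 reads, a ratio of 49.8 (33.9 to 73.1). In HAC 4-65 RT minus, CenU 67, 68, 72, 85 and 88 stood at 0.605% to 1.2% of the reads of the NCU code of their number. The absent codes of HAC 1-20 stood at 0.226% to 2.34% of their NCU code in RT minus, a range that holds these values. Codes 97 to 128, absent from the HAC 4-65 input, had 2 to 10 reads there, but they have no NCU partner in it. Whether DNA of CenU 67, 68, 72, 85 and 88 was present in HAC 4-65 could not be told from these reads.

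By number, CenU 96 was the last of the 96 CenU units in the input of HAC 4-65 but an inner unit of the input of HAC 1-20. The reverse primer of the common pair, shown because it must bind next to the code, is the following.
UniR: gctatcttacctgaaatctagctagtc
In the 4 contigs of HAC 1-20 that could be read, its site followed directly on the code in 183 of 185 matches, the 5 matches to shared codes included. The exceptions were CenU 127, which lies before vector sequence there, and NCU 96. Both had few reads in HAC 1-20: CenU 127 had 2 without and 10 with reverse transcription, and NCU 96 had 21 and 76. In HAC 4-65, CenU 96 had 27 and 45 reads beside 97 and 163 for NCU 96. The part of the primer site in the low level of CenU 96 was not tested, because the contigs of HAC 4-65 were not used here.

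Among the 25 codes low in neither line, the order of DNA levels was partly shared. Over all 32 codes Spearman's rho between the lines was 0.36 and Pearson's r of the log2 levels was 0.48, and over the 25 codes rho was 0.53. Each point is 1 code in 2 libraries, and all codes of a library share its PCR. The highest codes of HAC 1-20 were CenU 87 (263%), CenU 66 (255%) and CenU 65 (246%), and those of HAC 4-65 were CenU 90 (304%), CenU 87 (290%) and CenU 92 (260%). CenU 65 and CenU 87 were therefore high in both lines, at 227% and 290% in HAC 4-65.

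Stretches of codes moved together in DNA level between the lines. By a fold of 1.5 with a counting interval excluding 1, the level was higher in HAC 4-65 for 9 of the 25 codes (81, 82, 83, 84, 90, 91, 92, 93 and 95, by 1.59 to 2.66 times) and higher in HAC 1-20 for 2 (73 and 76), while 14 were within that fold or not separated. By the same rule 69.5% of NCU codes 1 to 95 differed between the lines. CenU 82 gave the largest shift towards HAC 4-65, with 496 reads (92.1% of the median) in HAC 1-20 and 3574 (245%) in HAC 4-65. CenU 76 gave the largest shift towards HAC 1-20, with 769 reads (143%) there and 897 (61.5%) in HAC 4-65. From CenU 69 to CenU 78, 8 of the 9 codes that were low in neither line had the higher level in HAC 1-20, and from CenU 81 to CenU 95 it was 12 of 13 codes that had the higher level in HAC 4-65. Of the NCU codes of the same numbers, 15 of 15 from NCU 81 to NCU 95 were higher in HAC 4-65 over their own median, so the second stretch was not particular to CenU. From NCU 69 to NCU 78, 0 of 10 were higher in HAC 1-20. These stretches were named after their values were seen.

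The share of a code in RT plus was then set against its share in RT minus, both scaled to the summed reads of NCU 1 to 96 in the same library. A log2 ratio of 0 means that reverse transcription did not change a code relative to the NCU codes. In HAC 1-20, 3 of the 32 codes were at least 1.5-fold higher in RT plus with an interval excluding 1, and they were CenU 65, CenU 66 and CenU 67. None was lower. Of the HAC 1-20 input codes with at least 10 reads, 15.9% were higher and 0% were lower, so the share of raised codes was not greater among the shared codes than in the input of that line. Of the 96 NCU codes, 0% passed the mark in either direction.

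In HAC 1-20, the reads of CenU 65 went from 1327 without to 6562 with reverse transcription, a ratio of 1.68 (interval 1.59 to 1.79). CenU 66 had 1371 and 6140 reads, a ratio of 1.53 (1.44 to 1.62). CenU 67 had 941 and 4673 reads, a ratio of 1.69 (1.58 to 1.81). The log2 ratios of this run were 0.75, 0.61 and 0.76, with counting errors (SE) of 0.043 to 0.052. The next code by number with enough reads, CenU 69, had 507 and 1434 reads and a log2 ratio of -0.05 (SE 0.075). Outside CenU 65 to 67, the other 26 codes that were not low had log2 ratios of -0.08 to 0.31. The 95 NCU codes with at least 20% of their median, which passed through the same PCR, spread from -0.13 to 0.22 with an SD of 0.074, and 24 of the 29 shared codes lay within that range. The upper end of the range was given by NCU 63, 66 and 25 (0.22, 0.21 and 0.19). Each of these has a copy that comes after CenU 65 to 67 in the same contig of HAC 1-20. Whether NCU codes gave RNA was not tested, so the range is not one of codes known to give none. An interval above 0 was found for 10 of the 29 codes and for 12.6% of the NCU codes, and one below 0 for none of the 29 and for 15.8% of the NCU codes. The 5 codes above the NCU range were CenU 65, 66 and 67, CenU 84 (496 and 1809 reads, 0.31, SE 0.073) and CenU 82 (496 and 1754 reads, 0.27, SE 0.073).

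The zero point of these ratios depends on the scaling, whereas the distances between codes of 1 library do not. Scaled to the summed reads of the input CenU codes instead, every log2 ratio in HAC 1-20 fell by 0.25 on the log2 scale. CenU 65, 66 and 67 then stood at 0.50, 0.36 and 0.51 and none of the shared codes reached 1.5-fold, while 20 of the 29 codes that were not low had an interval below 0. Scaled to all reads on codes or to the median of the shared codes, CenU 66 stood at 0.57 and 0.51 and fell below the mark, while CenU 65 and CenU 67 did not. In HAC 4-65 the change to input CenU reads moved the ratios by 0.02.

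CenU 65, 66 and 67 were also found as neighbours in the HAC 1-20 sequence. In the readable contigs these units followed each other at a spacing of 1946 bases and led into CenU 104 to 110, forming a run of 10 CenU units. CenU 127 lay 9841 bases before CenU 65, and the DNA between these 2 codes held 11 vector tags, 3 of them from the KM/Neo marker cassette. The 7 codes from CenU 104 to CenU 110, which HAC 4-65 did not receive, had ratios of 1.61 to 2.47 in HAC 1-20. After CenU 110 the contig went on with NCU 25, 26, 27 and 28, at log2 ratios of 0.19, 0.13, 0.10 and 0.16. Further on came NCU 65, 66 and 63 (0.17, 0.21 and 0.22), with NCU 5 and 20 (-0.04 and 0.03) among them and NCU 50 (0.09) after them. Several of these NCU codes had further copies in the readable contigs. CenU 124, 125, 126 and 128, on the other side of the vector, had log2 ratios of -0.02 to 0.12. The DNA levels within the run differed: CenU 65 to 67 stood at 175% to 255% of the median of the shared codes, and CenU 104 to 110 at 63.1% to 135%. Only 5 of the 32 shared codes were matched in the readable contigs. CenU 87 and CenU 92, the other 2, each lay between NCU units, and the NCU unit after CenU 92 was followed by CenU 124. Their log2 ratios in HAC 1-20 were 0.06 and 0.11, at DNA levels of 263% and 151%. Copies outside the readable contigs could not be seen.

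In HAC 4-65, CenU 65 followed on CenU 64 in the input. Its DNA level there was 227% of the median, but CenU 66 stood at 10.5% and CenU 67 at 2.06%. Whether these codes behave as a run in HAC 4-65 could therefore not be told. The RT minus and RT plus reads of CenU 65 were 3306 and 3500, a log2 ratio of 0.14 (SE 0.035). CenU 66 had 153 and 51 reads, a log2 ratio of -1.52 (SE 0.23). CenU 67 had 30 and 40 reads, and its ratio of 1.38 could not be told from 1 at this depth (interval 0.865 to 2.21).

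By the mark of 1.5-fold, 1 of the 32 codes was higher in RT plus in HAC 4-65 (CenU 96) and 1 was lower (CenU 66), beside 2.08% and 13.5% of the 96 input codes of that line and 1.04% and 0% of the NCU codes. Both calls rest on codes with a low DNA level. CenU 66 made up 3.07% of the reads of NCU 66 in RT minus and 1.06% in RT plus, whereas CenU 67, 68, 72, 85 and 88 ranged from 0.605% to 1.2% in RT minus and from 0.597% to 1.44% in RT plus. CenU 66 thus exceeded CenU 67, 68, 72, 85 and 88 in RT minus alone. Such a fall was also seen in CenU 21 (194 and 65 reads) and CenU 22 (222 and 82 reads) of the same input, but hardly in CenU 20 (134 and 125 reads). For CenU 96, the log2 ratio of 0.79 (SE 0.35) stood beside 0.81 (SE 0.18) for NCU 96, and CenU 96 made up 27.8% of NCU 96 in RT minus and 27.6% in RT plus. With only the codes at 20% of the median or more, no shared code of HAC 4-65 passed the mark.

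Below that mark, the highest log2 ratios of HAC 4-65 were found in a stretch of neighbours by number. The reads of CenU 79 went from 1560 without to 1951 with reverse transcription, a ratio of 1.30 (interval 1.22 to 1.39). CenU 80 had 1643 and 2038 reads, a ratio of 1.29 (1.21 to 1.38). These were the only 2 of the 25 codes that lay above the range of the 95 NCU codes of that line with at least 20% of their median (-0.16 to 0.31 on the log2 scale), which leaves out NCU 96. CenU 81 to 84 followed with log2 ratios of 0.16 to 0.25, and CenU 73 to 78 before them lay between -0.11 and 0.08. CenU 93 had 2014 and 2298 reads and the same log2 ratio as the highest of CenU 81 to 84, 0.25. CenU 81 and CenU 93 lay inside the NCU range because of 1 code, NCU 10 (0.31, SE 0.036). The next highest of those 95 NCU codes, NCU 41, stood at 0.24. At the low end CenU 69 (1247 and 1075 reads), CenU 86 (2524 and 2249 reads) and CenU 87 (4234 and 3857 reads) had log2 ratios of -0.15, -0.11 and -0.08. These 3 of the 25 codes had an interval below 0 and 12 had one above 0, beside 17.9% and 16.8% of the NCU codes of that line. Over all 32 codes the median was 0.09 in HAC 4-65 and 0.08 in HAC 1-20, and the 64 HAC 4-65 input codes that HAC 1-20 did not receive had a median of -0.15.

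The ratios of the same unit were next set against each other in both lines. Because RT plus holds DNA and cDNA together, such a ratio also depends on how much DNA of the code each RNA preparation held. A difference between the lines is therefore not a difference in RNA alone. By the 1.5-fold mark, 3 of the 32 codes differed, namely CenU 65, CenU 66 and CenU 96, where 0% of the NCU codes did. For CenU 65 the log2 ratio was 0.61 higher in HAC 1-20 (interval 0.50 to 0.72), and this was the only one of the 3 whose DNA level was high in both lines. Under the other 3 scalings the difference of CenU 65 was 0.57 (all reads on codes), 0.57 (median of the shared codes) and 0.34 (input CenU reads), below 1.5-fold. For CenU 66 it was 2.13 higher (1.66 to 2.59), with the low reads of HAC 4-65 behind it. For CenU 96 the difference was -0.87 (-1.57 to -0.17). For CenU 67 it was 0.29 with an interval of -0.40 to 0.97, so that the 30 reads of HAC 4-65 RT minus allow neither a difference nor likeness to be read.

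Of the 25 codes low in neither line, 10 had an interval of the difference excluding 0, 5 in each direction, while 31.6% of NCU codes 1 to 95 had one. CenU 65, 76, 86, 87 and 89 were higher in HAC 1-20, and CenU 79, 80, 83, 91 and 93 were higher in HAC 4-65. After CenU 65, the largest differences were those of CenU 79 (-0.31, SE 0.09), CenU 80 (-0.30, SE 0.09), CenU 93 (-0.28, SE 0.09) and CenU 76 (0.25, SE 0.09). The split depends on the scaling, since scaling to input CenU reads shifted the differences by -0.27 on the log2 scale. Under it 1 code, CenU 65, had an interval above 0 and 14 had one below 0, with CenU 76, 86 and 87 at -0.02, -0.07 and -0.13 and CenU 79, 80 and 93 at -0.59, -0.57 and -0.55. CenU 79 then passed the mark of 1.5-fold and CenU 65 did not. Under each of the other 2 scalings, 3 codes (65, 76 and 86) had an interval above 0 and 6 had one below 0. With the main scaling, NCU codes 1 to 95 differed between the lines by -0.35 to 0.29, and only CenU 65 lay outside that range. For the 15 codes whose interval held 0, the bounds ran from -0.30 to 0.33, so that differences of up to 1.26-fold could not be told from none. Over the 25 codes the log2 ratios of both lines gave a Spearman's rho of 0.23 and a Pearson's r of 0.18.

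CenU 81 to 84 were below the mark of 1.5-fold in both lines. In HAC 1-20 their log2 ratios were 0.15, 0.27, 0.03 and 0.31 (SE 0.072 to 0.075), and the interval of CenU 83 held 0. In HAC 4-65 they were 0.25, 0.16, 0.20 and 0.20 (SE 0.033 to 0.039), all with an interval above 0, and their DNA level was 180% to 247% of the median in HAC 4-65 and 89.7% to 100% in HAC 1-20. CenU 87 and CenU 90, the most abundant pair of HAC 4-65, gave 0.06 and 0.13 in HAC 1-20 and -0.08 and 0.19 in HAC 4-65.

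The values were also set against the base composition of the codes and against their neighbours by sequence. Spearman's rho between the number of G and C bases in the code and its DNA level was 0.02 in HAC 1-20 and 0.10 in HAC 4-65, over 32 codes. Against the log2 ratio it was -0.21 over the 29 codes of HAC 1-20 that were not low and -0.00042 over the 25 of HAC 4-65. Codes n and n + 16, which differ at position 10 alone, gave a rho of 0.27 between their log2 ratios in HAC 1-20 (14 pairs) and -0.01 in HAC 4-65 (10 pairs). The RT minus reads of a code and of the NCU code of its number gave a rho of -0.09 over 29 codes in HAC 1-20 and 0.31 over 25 codes in HAC 4-65. The log2 ratio of a code and that of the NCU code of its number gave a rho of 0.08 over 29 codes and -0.12 over 25.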

How the data were processed

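Reads of the competitive PCR products were trimmed and aligned by the authors to a set of synthetic code references with cutadapt 4.0, Bowtie and SAMtools per the submitters' processing notes, and the deposited files give the read count per reference. The options of the alignment are not given in the sources used here. T references were read as CenU and L references 1 to 96 as NCU, since no file states it. The references are 67 bases long, 82 for T001 and L001. Reads matching no code (6.19% to 7.54% per library) were left out. Counts were processed with Python 3, numpy and scipy. A pseudocount of 0.5 was added and ratios were scaled to summed NCU 1 to 96 reads. Calls needed 10 reads, a fold of 1.5 and a 95% interval from Poisson errors. The interval was checked on simulated counts that were also drawn with Poisson errors, so the check could not show whether real counts vary more. The libraries had no molecular identifiers, so a read is not a separate molecule and the intervals cover counting error only. Code sequences and contigs came from the sequence lists of the study, and 30 of the 32 unit primers were compared. The contig file was read in part. The codes, rules and stretches described were chosen with earlier results of these data known. Named codes were those low in either line, the 3 highest and lowest levels and ratios per line, the 5 largest differences between lines, those past 1.5-fold, and CenU 65, 66, 67, 72 and 96. Scaling, pseudocount, fold, minimum reads and a background subtraction were varied.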

Additional observations from a re-analysis of the deposited data

Results flagged for a closer look

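CenU 66 was called in opposite directions in both lines, with a log2 ratio of RT plus over RT minus of 0.61 in HAC 1-20 and -1.52 in HAC 4-65. With 1 library per group, the difference was not tested. The HAC 4-65 value rests on 153 and 51 reads, at a DNA level of 10.5% of the median. In that line 13.5% of the 96 input codes were called lower. Under the other scalings the HAC 1-20 value was 0.57, 0.51 and 0.36, below 1.5-fold. CenU 1, which was not in the input of HAC 1-20, was given 700 RT minus reads and 2092 RT plus reads of that line, above the 50 and 208 reads of the highest of the other 63 CenU codes absent from that input.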

How the results depend on the processing

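No paired analysis was possible because there was only 1 library in every group. Of the 62 alternative values of the 9 counts and correlations, 51 kept their value within 1.5-fold (a correlation within 0.1). The correlations kept their sign. A count cannot reverse, and it can keep its value while the codes behind it change. The number of codes higher in RT plus in HAC 1-20 went from 3 to 0 when scaled to input CenU reads and at a fold of 2, and to 5 with the background subtraction, which added CenU 68 and CenU 72. In HAC 4-65 the number higher went from 1 to 3 at the lower fold tried, and to 0 at a fold of 2, with at least 100 reads, and with codes at 20% of the median or more, where the number lower went from 1 to 0 as well. The number of codes differing between the lines went from 3 to 1 at a fold of 2 (CenU 66) and to 1 with codes at 20% of the median or more (CenU 65). Scaled to input CenU reads it stayed at 3, but with CenU 79 in place of CenU 65. CenU 66 in HAC 1-20 and the difference of CenU 65 also fell under 1.5-fold when scaled to all reads on codes or to the median of the shared codes. Spearman's rho of the DNA levels rose from 0.36 to 0.53 without the low codes. Of 266 alternative values of single codes, 36 left their counting interval, 35 of them under another scaling and 1 under the subtraction (CenU 72 in HAC 1-20, 1.16). The codes low in DNA were those named under every alternative but 1: below 10% of the median, CenU 66 of HAC 4-65 (10.5%) was no longer counted. The 21 to 153 RT minus reads of the low codes limit their ratios.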
